A study of Capra hircus with 9 samples.

Results

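The genes described here are 10 genes of the connective tissue that surrounds the milk-secreting epithelium. They encode 5 small leucine-rich proteoglycans (DCN, BGN, LUM, FMOD and OGN), 4 matricellular proteins (POSTN, SPARC, THBS1 and TNC) and fibronectin (FN1). They were chosen by gene symbol and are 10 of the 23499 genes in the deposited table. All of them were among the 14701 genes tested, and TNC passed the filter on low values only because of its DP libraries. The libraries were made from mammary gland tissue of 9 healthy Laoshan dairy goats of parity 3 with a mean age of 4 years. 3 goats were in late lactation (LL, 240 days postpartum), 3 were in the dry period (DP, 300 days postpartum) and 3 were in late gestation (LG, 140 days after mating). The sample descriptions name no treatment, and each library comes from a different goat, so every comparison is between animals.

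Small leucine-rich proteoglycans are secreted core proteins built of leucine-rich repeats, most of which carry glycosaminoglycan chains. They bind collagen fibrils, control fibril diameter and spacing, and hold growth factors such as TGF-beta in the matrix. Matricellular proteins are secreted into the matrix but act mainly on how cells attach, migrate and respond to growth factors, and many of them are made during tissue remodelling. Fibronectin is the adhesive glycoprotein on which other matrix proteins assemble. In the mammary gland these proteins are made mainly by stromal fibroblasts. The gland loses secretory epithelium after milking stops and regrows it during pregnancy, and the stroma is remodelled through both phases.

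Levels are given as FPKM, fragments divided by the length of the gene and by the number of mapped fragments of the library, as deposited. Differences are log2 fold changes with standard errors (SE), computed on log2(value + 1) after scaling the libraries to each other, which understates the change of genes at low levels. A gene was called where the adjusted p from limma, with Benjamini-Hochberg adjustment over all genes tested, was below 0.05 and the log2 fold change was at least 1 in size. The scaling matters here: the factor of a library was 0.496 to 0.604 in LL, compared with 1.44 to 1.52 in DP and 1.19 to 1.31 in LG. If the scaling was left out, the median of all genes shifted by 1.09 for DP against LL, by 0.93 for LG against LL and by -0.18 for LG against DP. FPKM give no read counts, so no counting error is attached to them.

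One library stands apart from the others for these genes. In DP replicate 3, 8 of the 10 genes were at least 2-fold above both other DP libraries, with only DCN and POSTN below that size. Of all genes tested, 2.34% were that high in DP replicate 3. The correlation across genes was 0.920 and 0.945 between DP replicate 3 and the other DP libraries and 0.956 between those 2, compared with 0.975 to 0.980 among LL libraries and 0.961 to 0.972 among LG libraries. DP replicate 1 also had 210 genes at least 2-fold above both other DP libraries, none of them among the 10, so the stage as a whole was the most spread. Results for the 10 genes are therefore given with all 9 libraries and again without DP replicate 3.

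**Figure D1:**
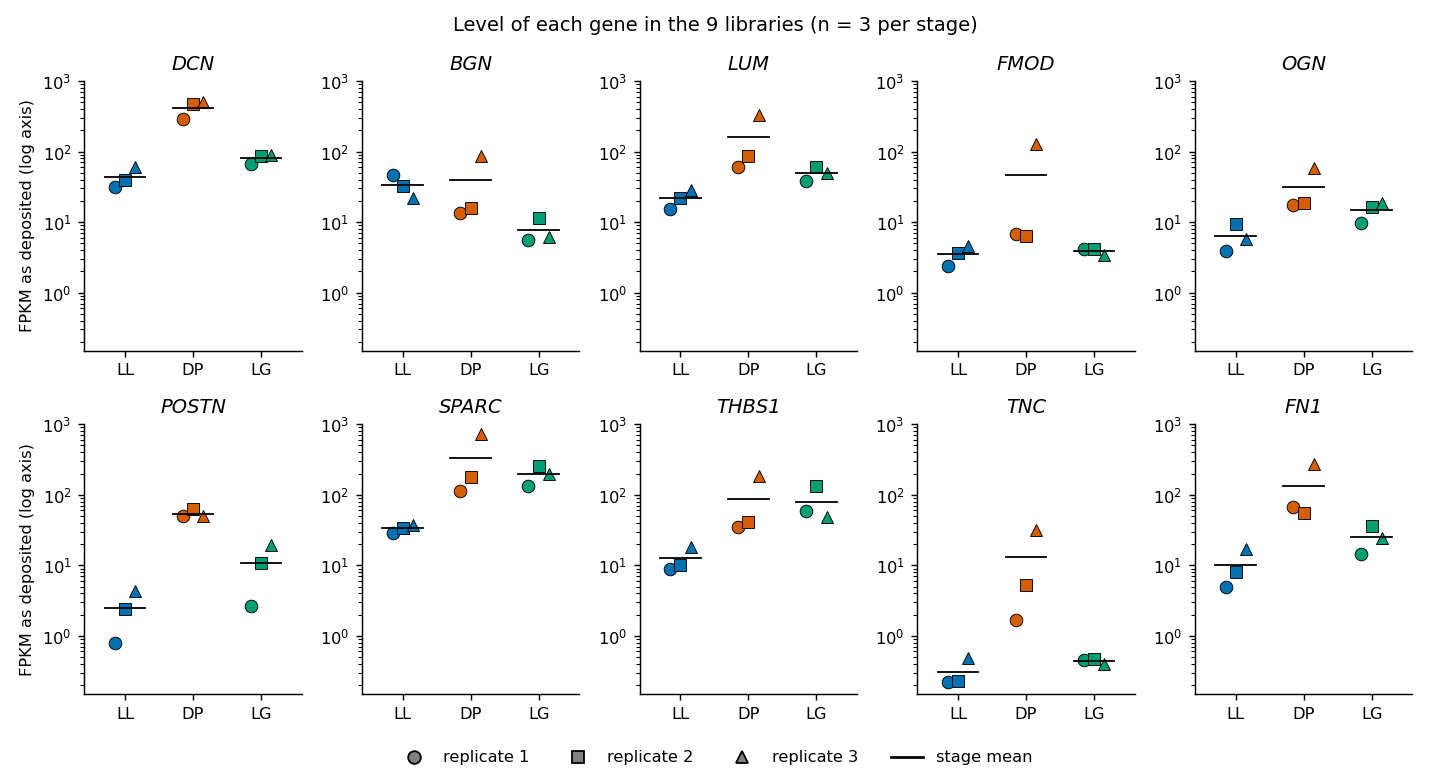
FPKM as deposited of the 10 genes (one panel each, log axis) in LL, DP and LG. Each symbol is one library (circle, square and triangle for replicates 1, 2 and 3) and the line is the mean of 3. DP replicate 3 lies above the other DP libraries in every panel except that of POSTN, and DCN and POSTN are the genes whose 3 DP libraries lie close together and above both other stages.

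The summed level of the 10 genes was 142, 162 and 198 FPKM in the LL libraries. It was 649, 937 and 2372 FPKM in the DP libraries and 336, 611 and 460 FPKM in the LG libraries. The sums of the 3 stages did not overlap between LL and either other stage. As a share of all FPKM in a library they made up 0.0123% to 0.0210% in LL, against 0.108% to 0.395% in DP and 0.0458% to 0.0815% in LG. After scaling, the sums were 286 to 328 in LL, against 426 to 1653 in DP and 281 to 497 in LG, so that LG and LL overlapped. In bulk tissue, fewer cells of a type and less RNA per cell cannot be told apart.

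In DP against LL, DCN, POSTN and FN1 were called higher and none of the 10 genes was called lower. TNC was also called higher, but it entered the test only through its DP libraries, so its call is not counted as a result. Of all genes tested, 13.8% were called higher and 8.79% lower. The median log2 fold change of the 10 genes, TNC included, was 1.26, against 0.004 over all genes tested. Without DP replicate 3, 9 of the genes could be tested, 3 were called higher (DCN, POSTN and FN1), BGN was called lower, and the median was 0.34. That fit called 3238 of all genes, against 3323 with all libraries.

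In LG against LL, BGN was called lower and none of the 10 genes was called higher. Among all genes tested, 10.7% were called higher and 6.61% lower, so that 1 of 10 is near the background. The median of the 10 genes was 0.05, against 0.02 over all genes. Without DP replicate 3, SPARC and THBS1 were called higher in LG beside the lower call for BGN. That fit called 2533 of all genes, against 2547 with all libraries.

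In LG against DP, DCN, POSTN and FN1 were called lower and none was called higher. TNC was also called lower, which is again not counted because it entered the test through DP alone. The background was 6.89% of genes called lower and 6.38% called higher. The median of the 10 genes, TNC included, was -1.61, against 0.01 over all genes. Leaving out DP replicate 3, DCN and POSTN were called lower and the median was -0.39. That fit called 1814 of all genes, against 1951 with all libraries. The comparisons share libraries with each other, so they are not independent.

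**Figure D2:**
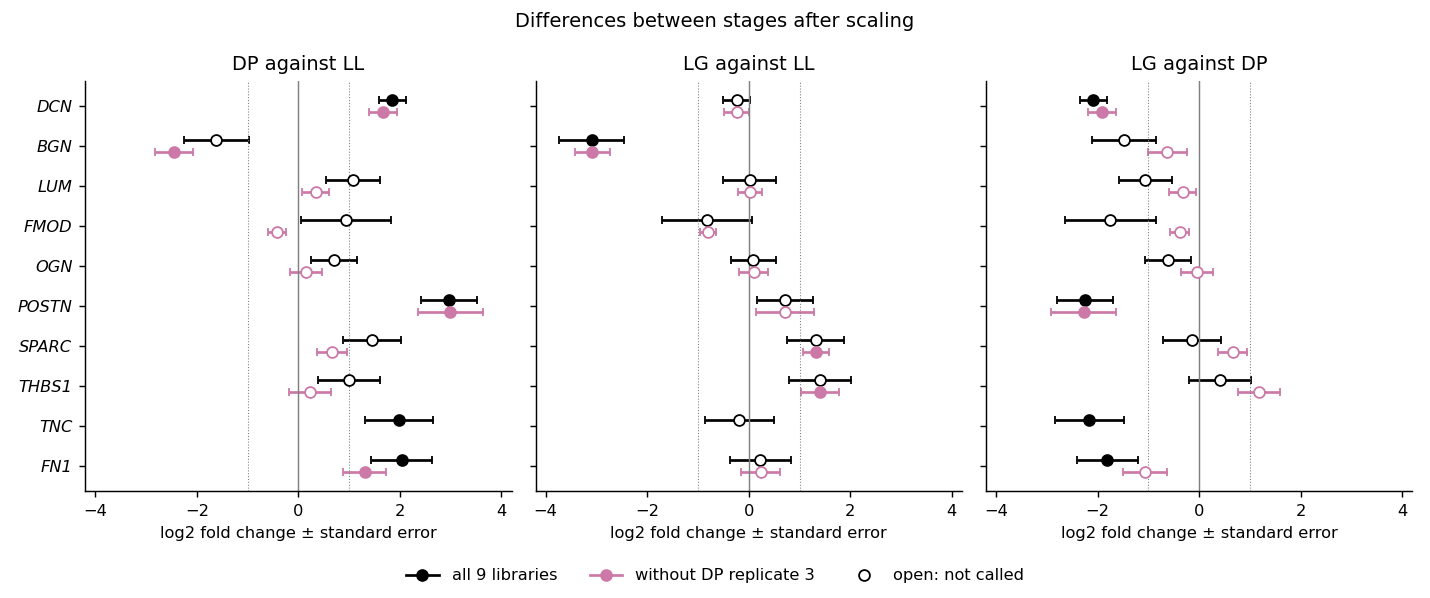
Log2 fold change ± SE of the 10 genes in DP against LL, LG against LL and LG against DP, with all 9 libraries (black) and without DP replicate 3 (pink). Filled points were called, dotted lines mark a log2 fold change of 1 in size, and TNC has no pink point because it was not tested without that library. DCN and POSTN stay in place when the library is left out, while FMOD in DP against LL moves from 0.93 to -0.42.

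DCN encodes decorin, a class I proteoglycan that binds fibrillar collagen and TGF-beta. The gene (ID 100860944) lies at chr5:20825973-20862672 on the minus strand. Its level was 31.2, 39.9 and 59.7 FPKM in LL, 286, 465 and 509 FPKM in DP, and 67.2, 86.1 and 90.1 FPKM in LG. All 3 DP libraries were above every LL and LG library. It was the gene with the highest mean of the 10 in LL (43.6 ± 14.6 FPKM, SD, n = 3) and in DP (420 ± 118 FPKM, SD, n = 3).

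Decorin mRNA was higher in DP than in LL by a log2 fold change of 1.85 (SE 0.26, adjusted p = 0.000346), and by 1.67 without DP replicate 3 (adjusted p = 0.00114). It was lower in LG than in DP by -2.09 (SE 0.26, adjusted p = 0.000408). Both calls held when each of the 9 libraries was left out in turn, with 1.67 to 2.13 for DP against LL and -2.37 to -1.91 for LG against DP. LG against LL gave -0.24 (SE 0.26, adjusted p = 0.470), a difference whose sign changed with the scaling (0.92 without scaling and 0.12 with quantile normalization).

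BGN encodes biglycan, the other class I member and the closest relative of decorin, which also binds collagen and can act on Toll-like receptors when it is released from the matrix. The gene (ID 102183219) lies on a scaffold that is not placed on a chromosome, at positions 56783 to 70690. Its level was 46.0, 32.1 and 21.9 FPKM in LL and 5.58, 11.3 and 6.23 FPKM in LG. DP was split, with 13.3 and 15.7 FPKM in replicates 1 and 2 and 87.8 FPKM in replicate 3. Every LG library was below every LL library, both as deposited and after scaling.

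Biglycan was the 1 gene of the 10 with a negative value in DP against LL when all libraries were used. Its log2 fold change in LG against LL was -3.10 (SE 0.64, adjusted p = 0.00329), and it stayed between -3.45 and -2.79 when single libraries were left out. Without scaling it was -1.98, and it was called under every alternative. In DP against LL it was -1.62 (SE 0.64, adjusted p = 0.0527), which missed the threshold. Without DP replicate 3 it was -2.45 (SE 0.38, adjusted p = 0.000784), and without LL replicate 3 it was -1.97 (adjusted p = 0.0474), both of which were called. LG against DP gave -1.48 (adjusted p = 0.0994), and -0.63 (adjusted p = 0.240) without DP replicate 3.

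The ratio of DCN to BGN within a library does not depend on the scaling. In LL it was 0.680, 1.24 and 2.72. DP had ratios of 21.6, 29.7 and 5.80, and LG had ratios of 12.0, 7.65 and 14.5. Thus the lowest ratio of any DP or LG library (5.80) was above the highest of any LL library (2.72), and in LL replicate 1 biglycan exceeded decorin. No test was run on this ratio, which was chosen after the values were seen.

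LUM encodes lumican, a class II proteoglycan with keratan sulfate chains that binds collagen fibrils. The gene (ID 102176393) lies at chr5:20785561-20795162, next to DCN. Its level was 15.2, 22.1 and 28.1 FPKM in LL, 60.1, 87.6 and 328 FPKM in DP, and 38.6, 59.6 and 49.3 FPKM in LG. DP lay above LL and LG as deposited, but the ranges of the 3 stages overlapped after scaling. The log2 fold change in DP against LL was 1.07 (SE 0.52, adjusted p = 0.105) and became 0.34 (adjusted p = 0.290) without DP replicate 3. It was called without DP replicate 1 (1.59, adjusted p = 0.0213) and with quantile normalization (1.76, adjusted p = 0.0244). In LG against LL the value was 0.01 (adjusted p = 0.983). LG against DP gave -1.06 (adjusted p = 0.147). It was called without DP replicate 1 (-1.58, adjusted p = 0.0334) and shrank to -0.32 (adjusted p = 0.387) without DP replicate 3.

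FMOD encodes fibromodulin, the class II proteoglycan that shares collagen binding with lumican and takes part in fibril cross-linking. The gene (ID 102183621) lies at chr16:509293-519484. Its level was 2.42, 3.62 and 4.65 FPKM in LL and 4.16, 4.16 and 3.43 FPKM in LG. In DP it was 6.79 and 6.37 FPKM in replicates 1 and 2 and 129 FPKM in replicate 3, the widest split of the 10 genes. DP against LL was 0.93 (SE 0.89, adjusted p = 0.386) with all libraries and -0.42 (SE 0.18, adjusted p = 0.0760) without DP replicate 3. Neither was called, and the sign rests on that library.

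In LG against LL, fibromodulin gave -0.81 (SE 0.89, adjusted p = 0.470), and -0.80 (SE 0.16, adjusted p = 0.00310) without DP replicate 3, a difference that passed the p threshold but not the fold threshold. LG against DP gave -1.75 (SE 0.89, adjusted p = 0.156), and -0.39 (SE 0.18, adjusted p = 0.134) without DP replicate 3. The row of FMOD is tied to that of its neighbour LOC106502934 at chr16:504399-508747. A straight line with a slope of 1.00 gave FMOD from its neighbour with a largest residual of 0.202% of the range, so the pair is not a separate measurement. The same limit applies where FMOD is ranked by level or its rise in DP replicate 3 is given. No other such tie was found among 113 pairs of these genes with their neighbours.

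OGN encodes osteoglycin, also called mimecan, a class III proteoglycan. The gene (ID 100860756) lies at chr8:83789289-83805337. Its level was 3.86, 9.53 and 5.70 FPKM in LL, 17.4, 18.6 and 58.3 FPKM in DP, and 9.85, 16.5 and 18.6 FPKM in LG. The stages overlapped after scaling, and no comparison was called: 0.70 (SE 0.45, adjusted p = 0.207) in DP against LL, 0.09 (adjusted p = 0.881) in LG against LL and -0.61 (adjusted p = 0.322) in LG against DP. Without DP replicate 3 the difference of DP from LL was 0.15 (SE 0.32), and that of LG from DP was -0.05 (SE 0.32).

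POSTN encodes periostin, a matricellular protein that binds collagen, fibronectin and integrins and is made by activated fibroblasts. The gene (ID 102172638) lies at chr12:62423932-62458253. Its level was 0.78, 2.38 and 4.27 FPKM in LL, 49.9, 61.8 and 49.5 FPKM in DP, and 2.63, 10.6 and 19.5 FPKM in LG. The DP libraries lay close together and above every other library, while LL and LG were each spread widely.

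Periostin had the largest difference of the 10 genes in DP against LL, with a log2 fold change of 2.97 (SE 0.55, adjusted p = 0.00170) and 2.99 without DP replicate 3. LG was lower than DP by -2.25 (SE 0.55, adjusted p = 0.0121). Both were called in every fit that left out 1 library. LG against LL gave 0.72 (SE 0.55, adjusted p = 0.309), and 1.36 (adjusted p = 0.0307) without LG replicate 1, the lowest LG library.

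SPARC encodes osteonectin, a collagen-binding matricellular protein of tissues that lay down matrix. The gene (ID 100860800) lies at chr7:47508621-47530930 on the plus strand. Its level was 28.6, 34.2 and 37.2 FPKM in LL, 112, 181 and 718 FPKM in DP, and 134, 253 and 198 FPKM in LG, where it had the highest mean of the 10 genes (195 ± 59.8 FPKM, SD, n = 3). Every DP and LG library was above every LL library, also after scaling. The difference was not called with all libraries, at 1.45 (SE 0.57, adjusted p = 0.0515) in DP against LL and 1.32 (SE 0.57, adjusted p = 0.0796) in LG against LL.

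For osteonectin the size of LG against LL did not rest on DP replicate 3, but its error did. Without that library it was 1.32 (SE 0.26, adjusted p = 0.00293), and in a fit of only LL and LG it was 1.33 (adjusted p = 0.00187). DP against LL fell to 0.66 (SE 0.29, adjusted p = 0.0804) without it. That comparison was called without DP replicate 1 (2.04, adjusted p = 0.00921), with quantile normalization (2.39, adjusted p = 0.0144), without scaling (2.85, adjusted p = 0.000709) and with a pseudocount of 0.1 (1.46, adjusted p = 0.0493). LG against DP was -0.14 (adjusted p = 0.874) with it and 0.66 (SE 0.29, adjusted p = 0.120) without it.

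THBS1 encodes thrombospondin 1, which inhibits angiogenesis through CD36 and can release TGF-beta from its latent form. The gene (ID 100860971) lies at chr10:67822176-67837900. Its level was 8.76, 10.3 and 18.5 FPKM in LL, 34.7, 40.7 and 185 FPKM in DP, and 58.9, 132 and 49.2 FPKM in LG. LG lay above LL in every library, also after scaling. DP overlapped LG, and it lay above LL as deposited but overlapped LL after scaling. LG against LL was 1.40 (SE 0.61, adjusted p = 0.0819) and was called without DP replicate 3 at 1.40 (SE 0.37, adjusted p = 0.0109) and in the fit of LL and LG alone at 1.41 (adjusted p = 0.0135). LG replicate 2 was at least 2-fold above both other LG libraries for THBS1, and without it LG against LL was 0.96 (adjusted p = 0.256). DP against LL was 0.99 (adjusted p = 0.187), and 0.23 (adjusted p = 0.658) without DP replicate 3. LG against DP was 0.41 (adjusted p = 0.639), and 1.18 (SE 0.41, adjusted p = 0.0563) without that library.

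TNC encodes tenascin C, an anti-adhesive glycoprotein of developing and healing tissue. The gene (ID 102179198) lies at chr8:103912121-104013697. Its level was 0.22, 0.23 and 0.48 FPKM in LL and 0.46, 0.47 and 0.40 FPKM in LG, and 1.65, 5.20 and 32.1 FPKM in DP. It was the lowest of the 10 genes in every stage, and its DP libraries were spread widely. The calls, 1.98 (SE 0.67, adjusted p = 0.0304) in DP against LL and -2.16 (adjusted p = 0.0327) in LG against DP, carry no weight of their own, since the gene entered the test through DP alone. The call in DP against LL was lost without any 1 of the LL libraries (adjusted p = 0.0557 to 0.0767), and that in LG against DP without any 1 of the LG libraries (adjusted p = 0.0723 to 0.0825).

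FN1 (ID 102182645, chr2:32406990-32476380, plus strand) had 4.93, 8.01 and 17.2 FPKM in LL, 67.4, 55.3 and 277 FPKM in DP, and 14.5, 36.5 and 24.8 FPKM in LG. The DP libraries were above every LL and LG library, also after scaling. DP against LL was 2.04 (SE 0.60, adjusted p = 0.0169), and 1.30 (SE 0.43, adjusted p = 0.0294) without DP replicate 3. It missed the threshold without LL replicate 1 (1.70, adjusted p = 0.0630) or LL replicate 2 (1.95, adjusted p = 0.0516). LG against DP was -1.81 (SE 0.60, adjusted p = 0.0423), and was no longer called without DP replicate 3 (-1.07, adjusted p = 0.0894). Without LL replicate 2, LG replicate 1 or LG replicate 3 it was -1.81, -1.50 and -1.81, with adjusted p = 0.0590, 0.133 and 0.0949. LG against LL was 0.23 (adjusted p = 0.776).

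FPKM are per length, so the levels of the 10 genes can be set in order within a stage. In LL the means ran from DCN at 43.6 FPKM through SPARC at 33.3 ± 4.38 and BGN at 33.3 ± 12.1 to LUM at 21.8 ± 6.50 FPKM (SD, n = 3). Within each LL library DCN was above SPARC, while BGN was above both in LL replicate 1 and below both in the other LL libraries. In DP the order was DCN (420), SPARC (337), LUM (159), FN1 (133), THBS1 (86.7), POSTN (53.7), FMOD (47.3), BGN (38.9), OGN (31.4) and TNC (13.0 FPKM). Below DCN these means rest on DP replicate 3, except that of POSTN, for which DP replicate 3 had the lowest of the 3 values. In LG the order was SPARC (195 ± 59.8), DCN (81.1 ± 12.2), THBS1 (80.2 ± 45.6) and LUM (49.2 ± 10.5 FPKM), of which THBS1 overlapped both DCN and LUM. BGN moved from the third place in LL to the eighth in both DP and LG.

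DP replicate 3 did not raise the genes by 1 common factor. Set against the mean of the other DP libraries after scaling, it held 20.2-fold more FMOD, 9.52-fold more TNC and 6.24-fold more BGN. THBS1 (5.04-fold), SPARC (5.02-fold), FN1 (4.66-fold), LUM (4.55-fold) and OGN (3.34-fold) followed. DCN was 1.39-fold and POSTN 0.910-fold of the other libraries. The fibroblast markers split in the same library: COL1A1, COL1A2 and COL3A1 were 5.33-, 5.17- and 4.24-fold and THY1 was 2.66-fold, while PDGFRB (1.43-fold), PDGFRA (1.41-fold) and FAP (0.838-fold) were near the other libraries. The part of tissue composition in this pattern was not tested.

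**Figure D3:**
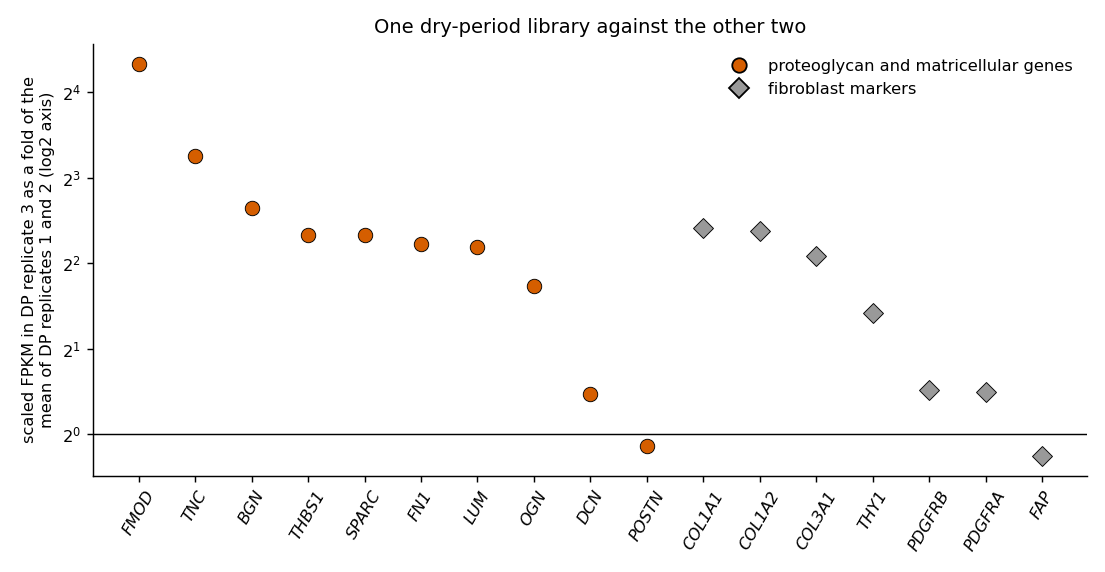
Scaled FPKM in DP replicate 3 as a fold of the mean of DP replicates 1 and 2 (log2 axis), for the 10 genes (circles) and 7 fibroblast markers (diamonds). FMOD, whose row is tied to that of its neighbour, is the highest at 20.2-fold, the collagen markers lie at 4.24-fold to 5.33-fold, and POSTN and FAP lie just below 1.

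The fibroblast markers were measured beside the 10 genes in each stage. Of 8 markers, TCF21 was below 0.1 FPKM in every library, and the summed level of the list after scaling was 134 to 203 in LL, against 331 to 1919 in DP and 454 to 863 in LG. In DP against LL, 7 of the 7 markers tested were called higher, with and without DP replicate 3. The largest were COL1A1 (2.37, adjusted p = 0.0148) and COL1A2 (2.29, adjusted p = 0.0137). In LG against LL, 2 were called higher, COL3A1 (2.42, adjusted p = 0.00458) and COL1A1 (2.12, adjusted p = 0.0263). The other markers tested were not called, and the median of the 7 was 0.31, against 0.02 over all genes. In LG against DP, 4 were called lower, led by PDGFRA (-2.41) and FAP (-2.29). In DP against LL, where DCN, POSTN and FN1 were called higher beside these markers, fibroblast content and expression per fibroblast cannot be told apart. In LG against LL only 2 of the 7 markers tested, both collagen genes, were called higher with all libraries, so they do not stand for the list. DCN (-0.24) and FN1 (0.23) were not called there and BGN was called lower (-3.10). The part of fibroblast content in this comparison was not tested. In the same comparison SPARC (1.32) and THBS1 (1.40) were not called with all libraries but were called higher without DP replicate 3.

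Markers of the other cell types moved differently. The luminal epithelial list (6 genes) had 1 gene called lower in DP against LL, ELF5 at -4.19, which was higher in LG than in DP by 3.82. ELF5 was far from the median of the list, which was -0.44 in DP against LL and 0.19 in LG against DP. Without DP replicate 3, another gene of the list was called lower in LG against DP, opposite to ELF5. The summed scaled level of the list was 822 to 1109 in LL, against 269 to 524 in DP and 735 to 893 in LG. Macrophage markers (5 tested) had 2 called higher in DP against LL, CSF1R (1.13) and MRC1 (1.14), and all 5 called lower in LG against DP, with scaled sums of 32.3 to 44.0 in LL, against 69.3 to 87.0 in DP and 22.2 to 24.1 in LG. ADGRE1 was below 0.1 FPKM in all LG libraries.

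Of the 9 myoepithelial and smooth muscle markers, TP63 was called higher in DP against LL (1.47), and TP63 (1.60) and OXTR (2.12) in LG against LL. In LG against DP, OXTR was called higher (1.41) and DES lower (-2.15), and the scaled sums of the list were 274 to 355 in LL, against 231 to 736 in DP and 284 to 404 in LG. No endothelial marker (6 tested) was called in either comparison with LL by limma, and TEK (-1.19) and CLDN5 (-1.96) were called lower in LG against DP, with scaled sums of 110 to 139 in LL, against 129 to 200 in DP and 62.8 to 86.7 in LG. Only 2 adipocyte markers were tested and none was called, with scaled sums of 2.78 to 3.89 in LL and 1.27 to 1.96 in LG. In DP the sum was 21.2 in replicate 1 alone, against 2.67 and 3.37 in replicates 2 and 3. The part of any of these cell types in the results for the 10 genes was not tested.

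4 of the 5 proteoglycan genes lie in clusters with related genes. LUM and DCN are 30810 bp apart on chromosome 5, with KERA (keratocan) and EPYC (epiphycan) on the far side of LUM. OGN lies with OMD, ASPN and ECM2 on chromosome 8, and FMOD with PRELP and OPTC on chromosome 16. EPYC and OPTC were at or below 0.05 FPKM in every library, and OMD stayed at or below 0.63 FPKM.

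Neighbours within a cluster did not keep a fixed ratio. The ratio of DCN to LUM was 4.76 and 5.31 in DP replicates 1 and 2, 1.55 in DP replicate 3, 1.80 to 2.12 in LL and 1.44 to 1.83 in LG. DCN thus exceeded LUM in all 9 libraries, and most in the pair of DP libraries that were alike. KERA, at 0.07 to 0.84 FPKM in LL and in DP replicates 1 and 2, was 9.58 FPKM in DP replicate 3 and 1.99 to 3.77 FPKM in LG. PRELP was 2.75 and 1.25 FPKM in DP replicates 1 and 2 and 19.1 FPKM in replicate 3, against 0.02 to 0.50 FPKM in the other stages, which followed the split of FMOD. ASPN was 17.7, 10.1 and 53.8 FPKM and ECM2 was 32.1, 35.9 and 74.9 FPKM in DP, with the highest value again in replicate 3, as for OGN.

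**Figure D4:**
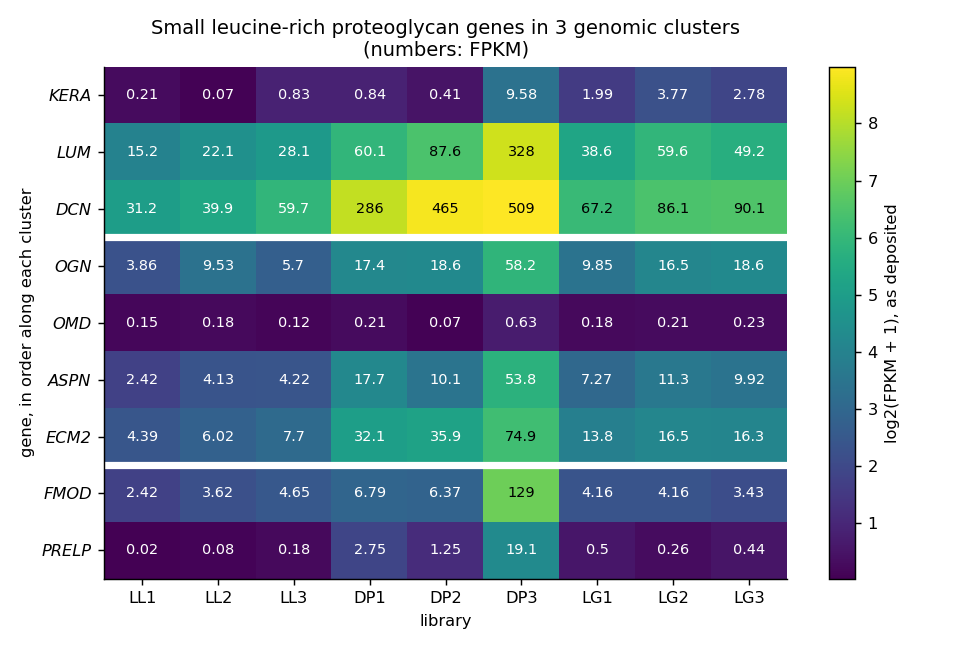
FPKM as deposited (numbers) and log2(FPKM + 1) (colour) of the proteoglycan genes of 3 genomic clusters, in order along each cluster, in the 9 libraries; EPYC and OPTC, at or below 0.05 FPKM, are left out. DP3 is the brightest column in all 3 clusters, DCN is bright in all 3 DP libraries, and OMD is dark throughout.

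Other small leucine-rich proteoglycans were read beside the 5 described above. Of 12 listed, 8 were tested, and 4 were called higher and 1 lower in DP against LL, with a median of 1.26. The 4 include PRELP (0.02 to 0.18 FPKM in LL, 0.26 to 0.50 FPKM in LG), which passed the filter only with its DP libraries counted. The largest were PODN (podocan, 1.99, adjusted p = 0.00355) and TSKU (tsukushi, 1.93, adjusted p = 0.000275), and NYX was lower (-1.29). Without DP replicate 3, 3 were called higher and 1 lower. In LG against LL, NYX was the 1 gene called (-1.11), and in LG against DP 3 were called lower, led by PODN (-2.97, adjusted p = 0.000788) and ECM2 (-1.22). Without DP replicate 3, LG against DP had 1 called higher and 1 lower.

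Larger and cell-surface proteoglycans (17 tested of 24 listed) had 4 called higher and 1 lower in DP against LL, 2 higher and 3 lower in LG against LL, and 1 higher and 8 lower in LG against DP. Without DP replicate 3, the last counts were 1 higher and 6 lower. VCAN, the large chondroitin sulfate proteoglycan versican, rose in DP by 2.27 (adjusted p = 0.00722) and was lower in LG than in DP by -1.996. SDC2 (syndecan 2) went the other way, at 60.1 to 73.6 FPKM in LL, 9.26 to 15.02 FPKM in DP and 45.7 to 76.0 FPKM in LG, a log2 fold change of -3.74 from LL to DP and 2.31 in LG against DP. It was also called lower in LG against LL (-1.43, adjusted p = 0.000631), although the ranges as deposited overlapped. GPC1 (glypican 1) was higher in both DP (1.79) and LG (1.19) than in LL, SDC1 was higher in LG than in LL (1.04), and SRGN (serglycin, a proteoglycan of blood cells) was lower in LG than in LL (-1.83) and DP (-2.29).

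Of the other matricellular genes, 21 of 24 were tested. In DP against LL 11 were called higher and 2 lower, in LG against LL 2 higher and 2 lower, and in LG against DP 13 lower and none higher by limma. Without DP replicate 3, 9 of 20 tested were called lower in LG against DP. NOV (2.49) and THBS4 (2.205), a relative of THBS1, were the largest rises in DP. NOV was 6.60, 27.8 and 110 FPKM in DP, and without DP replicate 3 it gave 1.51 (adjusted p = 0.0315), below THBS4 (1.80). SPP1 (osteopontin, which milk also contains) was 1146 to 1940 FPKM in LL, 169 to 226 FPKM in DP and 3.36 to 14.3 FPKM in LG, with log2 fold changes of -4.35 for DP and -8.46 for LG, each against LL. FBLN5 was lower in DP (-1.33) and LG (-1.64) than in LL, CTGF (1.83) and TGFBI (1.36) were higher in LG than in LL, and FBLN1 was lower in LG than in DP (-2.71). The median of the list was 1.48 in DP against LL, and 0.96 without DP replicate 3.

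Proteoglycan core proteins need enzymes to carry their chains. Of 21 such genes tested of 27 listed, 6 were called higher and none lower in DP against LL, 3 higher and 2 lower in LG against LL, and 4 lower in LG against DP. CHST14, which sulfates the dermatan sulfate chains that decorin and biglycan carry, was 0.08 to 0.13 FPKM in LL, 4.39 to 4.89 FPKM in DP and 2.62 to 3.38 FPKM in LG. It was higher than in LL by 1.78 in DP (adjusted p = 4.91e-06) and by 1.46 in LG (adjusted p = 1.85e-05). UST, another sulfotransferase of these chains, rose in DP by 2.01. XYLT1, which adds the first sugar of the chain, was lower in LG than in LL (-1.25) and DP (-1.57), CHST12 was lower (-1.46) and CHST15 higher (1.67) in LG than in LL, and CHST3 was lower in LG than in DP (-1.68).

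Receptors that bind the 10 proteins (18 tested of 19 listed) had 5 called higher and 1 lower in DP against LL, 1 higher in LG against LL, and 1 higher and 6 lower in LG against DP. CD36, the receptor of THBS1, which also takes up fatty acids, was 159 to 216 FPKM in LL, 17.2 to 30.2 FPKM in DP and 225 to 292 FPKM in LG, with -4.30 in DP against LL and 3.61 in LG against DP. Its FPKM pattern was unlike that of THBS1, which was lowest in LL as deposited, although THBS1 in DP overlapped LL after scaling. LRP1, which clears thrombospondin and decorin, was higher in DP than in LL (1.71, adjusted p = 0.0029) and lower in LG than in DP (-1.73). ITGB3 was higher in DP (1.67) and MET, which decorin binds, in LG (1.13) than in LL, and CD44 was lower in LG than in DP (-1.88).

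The enzymes and chaperones of collagen assembly (18 tested of 20 listed) had 7 called higher and 1 lower in DP against LL, but 3 higher and 1 lower of 17 without DP replicate 3. ADAMTS2, the procollagen N-proteinase, was higher than in LL in both DP (2.59, adjusted p = 0.00105) and LG (1.80, adjusted p = 0.00815). PCOLCE2 was higher (2.002) and PLOD2 lower (-1.30) in DP than in LL, and SERPINH1, the collagen chaperone HSP47, was higher (1.38) and TLL1 lower (-1.39) in LG than in LL. None of the 18 was called in LG against DP by limma. TGF-beta ligands and latency proteins, which decorin, biglycan and THBS1 bind or act on, had 6 of 8 called higher in DP against LL. LTBP1 (1.41) was the 1 gene called in LG against LL, where it was higher. In LG against DP 5 were called lower, and 3 of 7 tested without DP replicate 3. TGFB1 rose by 1.67 in DP (adjusted p = 8.13e-06) and LTBP2 by 2.2002, and LTBP2 (-2.51) and LTBP4 (-2.07) were lower in LG than in DP. Of the 73 calls named for the lists and the cell type markers, 67 were also made without DP replicate 3. The 4 that were lost were ECM2 (-0.83) and TEK (-0.98) in LG against DP, and PCOLCE2 (0.88) and MRC1 (0.69) in DP against LL. LTBP2 passed the filter on low values only with DP replicate 3 counted and was not tested without that library. Its calls, counted above, therefore carry no weight of their own. Beside NOV, values that moved by more than 1.5-fold without it but stayed called were those of VCAN (1.58 in DP against LL and -1.30 in LG against DP), ADAMTS2 (1.92), COL1A1 (1.52) and COL1A2 (1.46) in DP against LL, and DES (-1.11) in LG against DP. These lists hold between 8 and 21 tested genes each, and their shares are shown beside the background without a test of the list. The counts include genes that, like TNC, passed the filter on low values only with their DP libraries counted. Among them are PRELP, SPOCK1, GPC6, CSPG4 and THBS3, and calls of such genes carry no weight of their own.

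**Figure D5:**
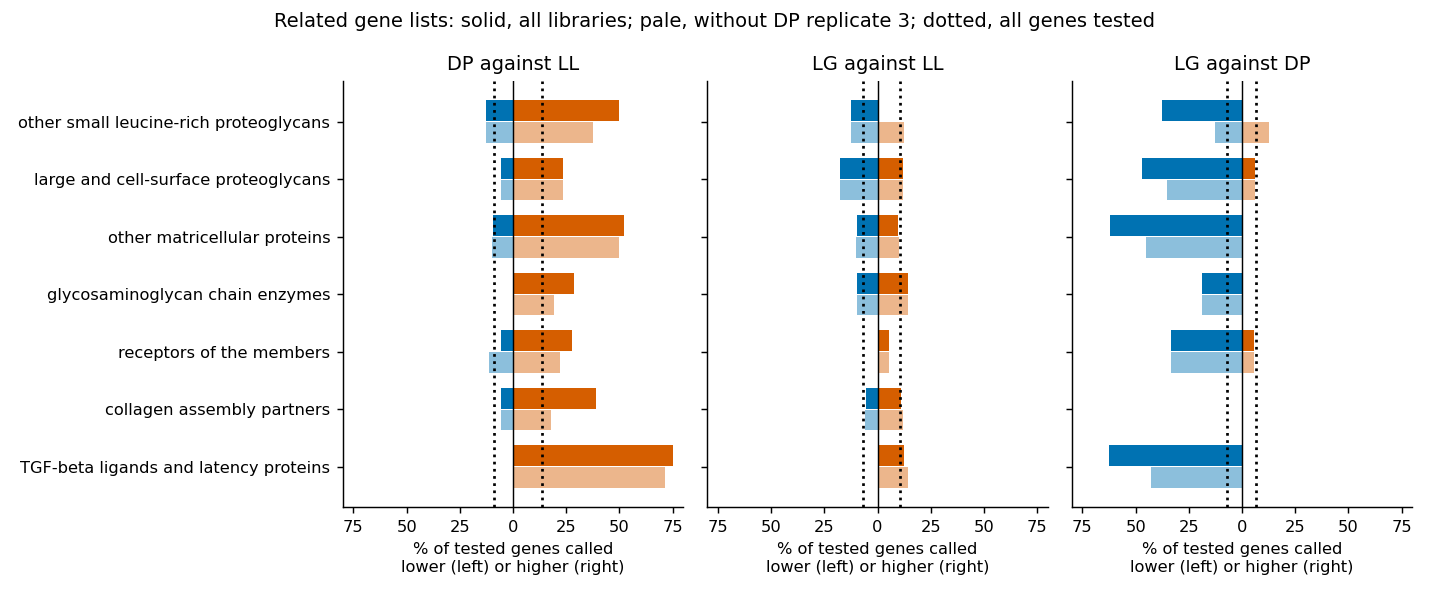
Share of the tested genes of each related list that were called higher (orange, right) or lower (blue, left) in the 3 comparisons, with all libraries (solid) and without DP replicate 3 (pale). Dotted lines give the share of all genes tested: 13.8% and 8.79% in DP against LL, 10.7% and 6.61% in LG against LL, and 6.38% and 6.89% in LG against DP.

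The gene outside the 10 whose pattern was most like a given one of them was sought by Pearson's r over the 9 libraries on scaled log2 values, among 11738 genes. The libraries share their scaling factors and stages, so r is a description only. DCN was most like VWA5A (r = 0.986), which was 4.70 to 6.15 FPKM in LL, 30.9 to 50.1 FPKM in DP and 8.67 to 10.2 FPKM in LG. POSTN was most like TCF4 (r = 0.960), a transcription factor at 22.5 to 25.2 FPKM in DP and 3.52 to 13.9 FPKM elsewhere. In both pairs the DP libraries lay above all others.

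SPARC was most like the collagen gene COL1A2 (r = 0.970) and FN1 most like FBN1, which encodes fibrillin 1 (r = 0.978). LUM was closest to LOXL4, a lysyl oxidase of collagen cross-linking (r = 0.992), FMOD to CPXM2 (r = 0.983), TNC to C1QTNF3 (r = 0.995) and OGN to TUBB2A (r = 0.975). In DP replicate 3 these genes were 933 FPKM (COL1A2), 190 FPKM (FBN1), 9.35 FPKM (LOXL4), 9.83 FPKM (CPXM2), 46.3 FPKM (C1QTNF3) and 77.6 FPKM (TUBB2A), each the highest of its 9 libraries. BGN was closest to PLCB4 (r = 0.995), whose FPKM changed little, from 2.11 to 5.77 over the 9 libraries, so that its likeness to BGN arises on the scaled values.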

How the data were processed

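RNA-seq values of the mammary gland of 9 goats (3 each in LL, DP and LG) were used. Per the labels and the paper's methods, tissue was frozen, total RNA was extracted with Trizol and libraries were made with a TruSeq kit. Reads were checked with FastQC, trimmed with Trimmomatic, aligned with HISAT2 and sorted with SAMtools. The methods name StringTie for quantification, whereas the submitters' processing notes name HTSeq. The values in the table deposited by the authors were taken as FPKM per gene, which the table itself does not name: they carry decimals and their sum differs between libraries. No genome build is named in it. Its coordinates equal those of the RefSeq table of assembly ARS1.2 for all 23465 gene IDs that matched, the 10 genes included.

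Libraries were scaled by the median-ratio method on 15905 genes, and log2 of the scaled FPKM plus a pseudocount of 1 was used. Genes reaching 0.5 FPKM in 3 or more libraries (14701) entered limma 3.58.1 under R 4.3.3 (lmFit, then contrasts.fit and eBayes with a trend, two-sided), with all 9 libraries and no covariates, after testing on simulated data. Alternatives were no scaling, quantile normalization, a pseudocount of 0.1, no filter, a filter of 2 FPKM, only the 2 stages compared, the replicate number as a block, no trend, a call by adjusted p alone, and leaving out each library. Neighbouring rows were called tied where a straight line left a residual of at most 1% of the range. Figures and summaries were made in Python 3.11.15.

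The genes and the lists were chosen with earlier results of these data known. Named are all 10 genes; of each list in each comparison, the 2 called genes with the largest change in each direction; and the most similar gene of each of the 10, except that the one for THBS1 is not reported here. Other genes named for their cluster or for DP replicate 3 were chosen after their values were seen. Same-numbered libraries come from separate goats, and the correlations of their deviations were -0.106 to 0.201, so the numbers do not pair the libraries. Protein and genome sequences were not used here.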

Additional observations from a re-analysis of the deposited data

How the results depend on the processing

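Of 497 results for single genes among the 10 under the alternatives, 434 kept their direction and their side of the threshold, 26 became called, 20 were no longer called and 17 changed sign. Without scaling, 8348 genes were called in DP against LL (3323 with scaling) and 7043 in LG against LL (2547 with scaling), and of the 10 genes 9 and 5 were called. LG against LL then changed sign for DCN (0.92), FMOD (0.13) and TNC (0.15), and with quantile normalization for DCN (0.12). By adjusted p alone, 8358, 7383 and 5112 genes were called in DP against LL, LG against LL and LG against DP (1951 with the fold threshold), and a pseudocount of 0.1 gave 3912 in LG against LL. A fit of only the 2 stages compared called 3 of the 10 genes for LG against LL and 2 for LG against DP. Of all genes it called 2355 and 2110. With no filter 2 of the 10 and 1867 of all genes were called in LG against DP. Leaving out single libraries gave 2 to 5 of the 10 in DP against LL (2 without LL replicate 1 or 2), 1 to 3 in LG against LL (2 without DP replicate 1 or LG replicate 1, 3 without DP replicate 3) and 2 to 5 in LG against DP (2 without DP replicate 3, LG replicate 1 or LG replicate 3). Of all genes, these fits called 3077 to 3425 in DP against LL, 2403 to 2588 in LG against LL and 1739 to 2006 in LG against DP. TNC, which entered the tests through DP alone, is included in the counts of the 10 where it was called. Leaving out single libraries moved FMOD in DP against LL between -0.42 and 1.61. In LG against LL it moved LUM between -0.16 and 0.14, OGN between -0.14 and 0.39 and FN1 between -0.11 and 0.61, and in LG against DP it moved SPARC between -0.72 and 0.66 and THBS1 between -0.049 and 1.18. Other causes of these changes were not tested. With the replicate number as a block, 5 of the 10 genes and 3342 of all genes were called in DP against LL. SPARC was the gene added (1.45, adjusted p = 0.0330 by limma). The other comparisons had 1 and 4 of the 10 called, as without the block, and 2567 and 1989 of all genes. Same-numbered libraries come from separate goats, so this block has no basis in the design. The added SPARC call therefore carries no weight of its own. With 3 goats per stage and no read counts, neither the counting error nor the spread of a stage can be given closely, and differences that were not called are not shown to be absent.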
